A study of Mus musculus with 6 samples.

Results

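Oligodendrocytes make the myelin of the brain, and 36 genes of their lineage were followed here after induced seizures in the mouse. The genes were taken by name from a list of established lineage and myelin markers. The rule itself uses no measured value, but the list was chosen with earlier results of these data known. They fell into 3 stages: 8 genes of precursor cells, 10 of newly formed oligodendrocytes and 18 of mature myelin. All 36 were found among the 55604 gene identifiers of the count tables, and 35 had enough reads to be tested. The treated libraries came from 3 brain samples of C57BL/6 mice given 4-aminopyridine by intraperitoneal injection (4-AP), and the controls were 3 brain samples of untreated C57BL/6 mice. 4-AP is a blocker of voltage-gated potassium channels, given in this study to bring on status epilepticus, a prolonged seizure state. Dose, time after injection, age, sex and brain region are not stated in the labels, and the controls are labelled untreated, not vehicle. All 6 RNA samples were digested with RNase R, an exonuclease that removes linear RNA and spares circles, before the libraries were made. The gene counts add up linear and circular RNA of a gene, which cannot be told apart.

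Oligodendrocyte precursors carry the PDGF receptor alpha and the proteoglycan NG2 on their surface and keep dividing in the adult brain. When they differentiate they switch on transcription factors such as Myrf, pass through a short stage marked by Gpr17, and then wrap axons with a membrane rich in myelin proteins and galactolipids. Myelin genes are among the most active genes of white matter, so their level in a piece of brain also follows how much white matter the piece holds. In these bulk samples fewer oligodendrocytes and less RNA per oligodendrocyte cannot be told apart.

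Total counts per library ran from 1507882 to 2721287 for 4-AP brain and from 2355610 to 3409055 for control brain. A count of 3 in 1 library was worth between 0.778 and 2.19 CPM (a gene's reads scaled to library size, with library sizes adjusted by the trimmed mean of M-values). Schwann cells, which make myelin outside the brain, left little trace: the summed level of their 7 markers ran from 4.39 to 7.17 CPM in 4-AP libraries and from 2.08 to 5.36 CPM in control libraries. Pmp2, a lipid-binding protein of peripheral myelin, and Egr2, a transcription factor of Schwann cells, were listed at 0 in every library. Gatm, from a longer list of mature oligodendrocyte genes, was at 0 in every library too, so a 0 need not mean that a cell type is absent.

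None of the 36 genes passed the test between 4-AP and control brain. By edgeR's quasi-likelihood test with an adjusted p under 0.05 (Benjamini-Hochberg over 11388 genes), 0 of the 35 tested genes were called, against 0.843% of all tested genes, 0.334% higher and 0.509% lower in 4-AP brain. Limma-voom also called 0 of the 35, and DESeq2 0 of the 16 to which it gave an adjusted p, the other 19 having none. At an unadjusted p under 0.05 edgeR counted 1 gene, Zfp536, against 13.9% of all tested genes. The log2 fold changes, 4-AP over control, ran from -0.37 for Myrf to 0.80 for Opalin with a median of 0.21, against a median of -0.008 over all tested genes. Of the 35 genes, 27 lay above 0, against 49.0% of all tested genes. Scaling by total counts alone moved the median of all genes to -0.22 and gave 26 higher and 293 lower calls among them, against 38 and 58; 16 of the 35 genes then lay above 0, but 28 lay above the median of all genes. The lean above 0 rested on single libraries: the median was 0.025 without 4-AP replicate 2, 0.074 without control replicate 2 and -0.19 with both of them left out, when 12 of 33 genes lay above 0. Only Pdgfra and Zfp536 among the tested genes had groups that did not overlap, 2 of 35 against 18.8% of all tested genes. Both had all 4-AP libraries on the upper side, as did 8.36% of all tested genes.

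**Figure D1:**
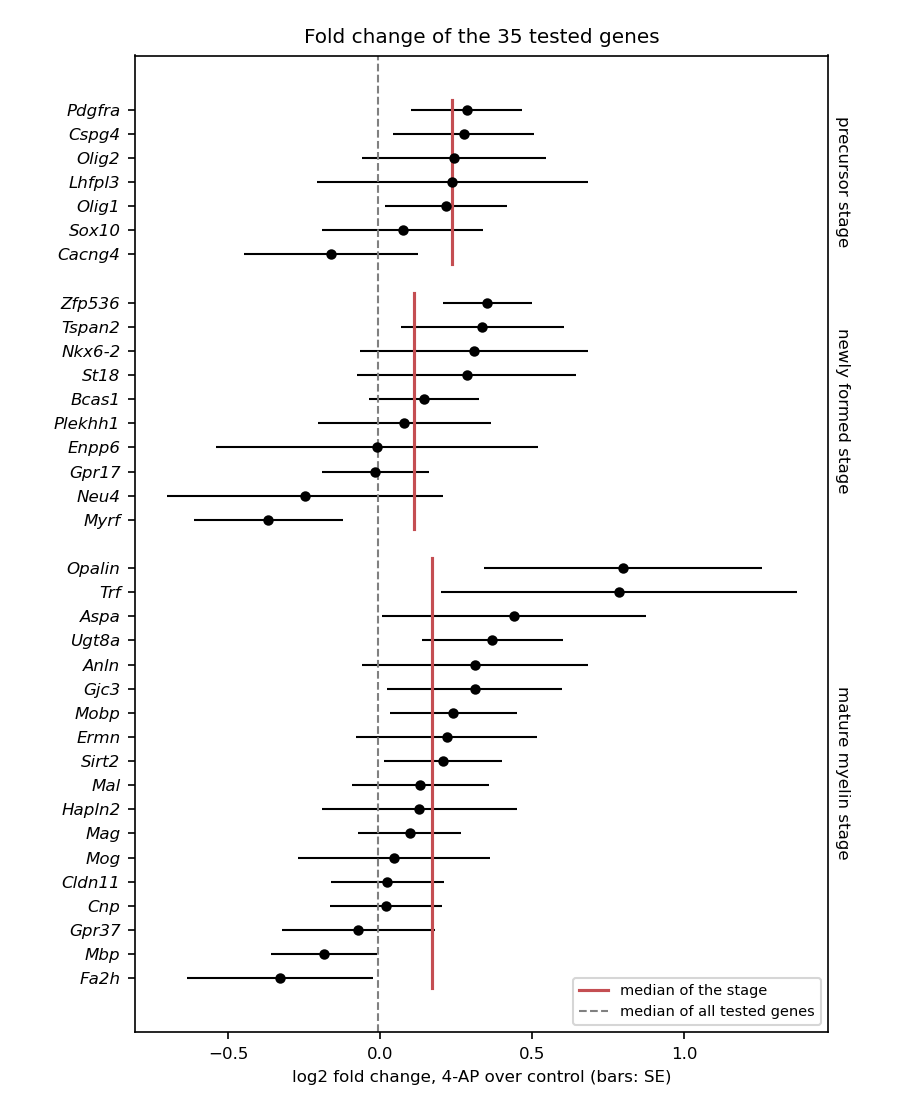
Log2 fold change, 4-AP over control, of the 35 tested genes by stage, with standard errors as bars, the stage median as a red line and the median of all tested genes (-0.008) as a dashed line. Most points lie right of the dashed line, from Myrf at -0.37 to Opalin at 0.80, and the widest bars belong to genes with few counts such as Trf (SE 0.58) and Enpp6 (SE 0.53).

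The summed level of the 36 genes was the same on average in both groups. It was 3318, 4235 and 3213 CPM in 4-AP brain and 4283, 2816 and 3663 CPM in control brain, with means of 3588 ± 562 CPM and 3587 ± 736 CPM (SD, n = 3 each). The groups overlapped widely, and the lowest and the highest sums were both in control libraries. The genes together took between 0.282% and 0.428% of the scaled counts of a library. The myelin basic protein gene Mbp alone made up 43.2%, 38.9% and 41.3% of that sum in 4-AP libraries, against 48.8%, 42.1% and 47.4% in control libraries. Without Mbp the other 35 genes summed to 2119 ± 406 CPM in 4-AP brain and 1917 ± 282 CPM in control brain (SD, n = 3 each), again with overlapping libraries.

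**Figure D2:**
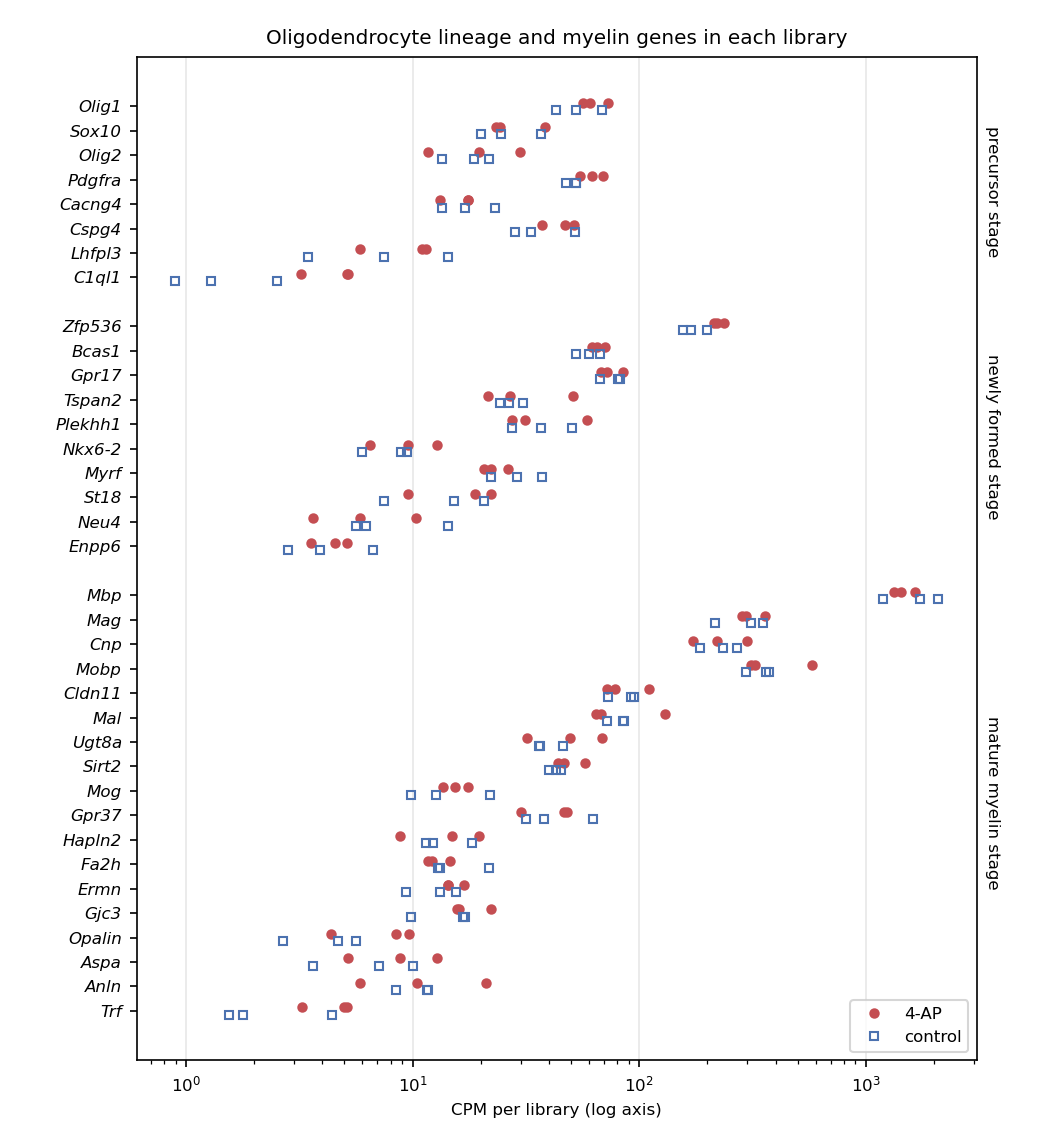
CPM of each gene in each library on a log axis, by stage and, within a stage, from the highest to the lowest level per kb of exon, with filled circles for 4-AP and open squares for control. The circles and squares of most genes are mixed, the level spans from 0.892 CPM for C1ql1 to 2089 CPM for Mbp, both in control libraries, and Pdgfra, C1ql1 and Zfp536 are the genes whose groups lie apart.

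The 36 genes lie on 15 chromosomes of mm10, and 4 chromosomes hold 4 of them each. Olig2 and Olig1, which encode the basic helix-loop-helix factors that set up the lineage, are neighbours on chromosome 16 with 41094 bases between them. In the annotation used (GENCODE M21) all are protein-coding genes, their exons add up to between 1473 bases (C1ql1) and 11931 bases (Cspg4), and the number of exons in the longest chain runs from 1 for Olig1 to 29 for Plekhh1. One gene, Trf, shared over 20% of its exonic bases with another annotated gene: 63.5% of them are shared with Gm20425, which has 0 counts in all libraries, so the value of Trf is uncertain. Sequence upstream of the start site was found in RefSeq (GRCm38.p6) for 25 of the 36 genes, in 28 windows of 250 bases. The letters ACAAAG, which SOX proteins such as Sox10 are known to bind, were searched on both strands (CTTTGT on the other) and were present in 6 of these 28 windows, against 5408 of all 32851 windows. A pair of the 6, both of Mag, overlap along most of their length. By gene the letters were found for 5 of 25, Cnp, Mag, Mobp, Opalin and Tspan2, against 18.6% of all 27025 genes searched. The E-box CAGCTG, which reads the same on both strands, was found for 3 of the 25 genes, Aspa, Hapln2 and Lhfpl3, against 14.7% of all genes. Both shares are descriptions of letters and not of binding. The 4 sequences that follow run from 250 to 51 bases before the RefSeq start, 5′ to 3′ on the strand of the gene, with the SOX letters in capitals. They are shown for Pdgfra, whose groups lay apart, for Opalin, with the highest fold change, for Cnp as an abundant myelin gene, and for Mobp, chosen after the letters were counted because its window alone among the 32851 held 6 copies.
Pdgfra, chr5:75152001-75152200, plus strand: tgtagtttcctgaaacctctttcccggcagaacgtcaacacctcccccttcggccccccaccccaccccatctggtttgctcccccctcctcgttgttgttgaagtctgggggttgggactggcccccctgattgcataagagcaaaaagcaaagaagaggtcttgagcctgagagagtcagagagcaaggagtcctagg
Opalin, chr19:41077164-41077363, minus strand: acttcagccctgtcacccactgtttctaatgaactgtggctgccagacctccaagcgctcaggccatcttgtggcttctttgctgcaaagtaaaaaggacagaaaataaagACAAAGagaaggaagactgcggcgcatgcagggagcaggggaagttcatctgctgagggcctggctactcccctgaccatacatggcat
Cnp, chr11:100574689-100574888, plus strand: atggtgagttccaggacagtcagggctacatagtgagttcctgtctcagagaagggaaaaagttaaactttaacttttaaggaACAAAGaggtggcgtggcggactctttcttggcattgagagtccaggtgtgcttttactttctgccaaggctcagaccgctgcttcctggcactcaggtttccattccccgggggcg
Mobp, chr9:120149492-120149691, plus strand: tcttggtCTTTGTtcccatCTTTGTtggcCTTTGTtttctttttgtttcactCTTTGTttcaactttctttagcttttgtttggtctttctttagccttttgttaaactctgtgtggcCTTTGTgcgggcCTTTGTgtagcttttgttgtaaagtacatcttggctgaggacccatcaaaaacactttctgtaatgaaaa
The 6 copies upstream of Mobp all read CTTTGT, and the stretches of Cnp and Opalin hold 1 copy each, which reads ACAAAG. The stretch of Pdgfra holds none.

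Precursor genes had low to moderate levels, and 0 of the 7 tested were called. Their sum was 244, 275 and 229.5 CPM in 4-AP libraries and 251, 193 and 206 CPM in controls, with means of 249.7 ± 23.3 CPM and 217 ± 30.9 CPM (SD, n = 3 each). The sums overlapped, since control replicate 1 lay above 4-AP replicates 1 and 3. The stage median log2 fold change was 0.24, with 6 of 7 genes above 0, and it was 0.15 without 4-AP replicate 2 or control replicate 2 and 0.002 without both.

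Pdgfra (chr5:75152292-75198215, 23 exons), the receptor for the growth factor that keeps precursors dividing, had 61.9, 69.0 and 54.8 CPM in 4-AP libraries and 52.8, 52.6 and 47.8 CPM in controls. All 3 4-AP libraries lay above all 3 controls. The log2 fold change was 0.28 (SE 0.18), with an adjusted p of 0.538 by edgeR. Cspg4, which encodes the NG2 proteoglycan of the same cells, had 46.9, 51.8 and 37.3 CPM in 4-AP libraries and 51.9, 28.3 and 33.5 CPM in controls. Here the highest value was in control replicate 1, so the groups overlapped, and the log2 fold change was 0.27 (SE 0.23). C1ql1, a secreted C1q-like protein of precursors, had 8, 9 and 7 counts in 4-AP libraries and 8, 5 and 2 counts in controls, too few for the test. Scaled for depth these were 5.21, 3.22 and 5.12 CPM in 4-AP libraries and 2.51, 1.30 and 0.892 CPM in controls, so the groups did not overlap, on 24 counts in all against 15.

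The 3 transcription factors that mark the whole lineage had overlapping groups. Olig1 had 56.7, 72.5 and 60.7 CPM in 4-AP libraries and 68.8, 52.4 and 42.8 CPM in controls, a log2 fold change of 0.21 (SE 0.20). Its neighbour Olig2 had 11.7, 29.7 and 19.7 CPM in 4-AP libraries and 21.7, 13.5 and 18.7 CPM in controls, a log2 fold change of 0.24 (SE 0.30). The lowest and the highest of the 6 values of Olig2 were both in 4-AP libraries. Sox10, the SOX factor that keeps oligodendrocyte identity, had 38.5, 24.3 and 23.4 CPM in 4-AP libraries and 36.8, 19.97 and 24.6 CPM in controls. Replicate 1 stood high in both groups of Sox10, and its log2 fold change was 0.07 (SE 0.26). Cacng4, an auxiliary subunit of AMPA receptors, ran from 13.2 to 17.6 CPM in 4-AP brain and from 13.5 to 23.2 CPM in control brain, with a log2 fold change of -0.16 (SE 0.29), the only precursor value below 0. Lhfpl3, a tetraspan membrane protein, ran from 5.87 to 11.4 CPM in 4-AP brain, inside the 3.46 to 14.3 CPM of control brain, with a log2 fold change of 0.24 (SE 0.45).

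Of the 10 genes of newly formed oligodendrocytes 0 were called, 6 lay above 0 and the median log2 fold change was 0.11. Their sum was 486, 543 and 463 CPM in 4-AP libraries and 506, 386 and 435 CPM in controls, with overlap. Zfp536 (chr7:37472135-37773641, 7 exons), a zinc finger protein, had the smallest p of all the lineage genes. It had 236, 213 and 221 CPM in 4-AP libraries and 199, 169 and 156 CPM in controls. All 4-AP libraries lay above all controls, and the means were 223 ± 11.6 CPM and 175 ± 22.0 CPM (SD, n = 3 each). The log2 fold change was 0.35 (SE 0.15), with an unadjusted p of 0.0248 and an adjusted p of 0.268 by edgeR. Over the other settings tried it stayed between 0.13 and 0.47, with adjusted p between 0.160 and 0.791. Zfp536 is known from neurons as well as from oligodendrocytes, and its level per kb, 24.2 CPM in 4-AP brain and 19.0 CPM in control brain, was the highest of its stage.

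Gpr17, the receptor that marks cells between precursor and myelinating state, had 72.4, 85.0 and 68.0 CPM in 4-AP libraries and 82.3, 66.9 and 80.8 CPM in controls. The groups overlapped throughout and the log2 fold change was -0.017 (SE 0.18). Bcas1, a protein of early myelinating cells, had 70.4, 65.4 and 62.1 CPM in 4-AP libraries and 67.0, 52.6 and 59.8 CPM in controls, a log2 fold change of 0.14 (SE 0.18). Both genes differed little between any of the libraries. Tspan2, a tetraspanin of early myelin, had 21.5, 51.1 and 27.1 CPM in 4-AP libraries and 30.8, 24.4 and 26.8 CPM in controls. A single library, 4-AP replicate 2, carried its log2 fold change of 0.34 (SE 0.27), which was -0.23 without replicate 2 of both groups. Myrf, the transcription factor that turns on myelin genes, had 22.2, 20.7 and 26.3 CPM in 4-AP libraries and 37.4, 22.3 and 29.0 CPM in controls. Its log2 fold change, -0.37 with SE 0.25 (adjusted p = 0.553 by edgeR), was the lowest of all the lineage genes, with control replicate 1 high and the groups overlapping. The transcription factors St18 and Nkx6-2 had overlapping groups too. St18 ran from 9.50 to 22.1 CPM in 4-AP brain and from 7.52 to 20.7 CPM in control brain, a log2 fold change of 0.28 (SE 0.36). Nkx6-2 ran from 6.52 to 12.9 CPM in 4-AP brain and from 5.96 to 9.43 CPM in control brain, a log2 fold change of 0.31 (SE 0.38). Plekhh1, a pleckstrin homology domain protein, spanned 27.4 to 58.6 CPM in 4-AP brain and 27.5 to 50.6 CPM in control brain. Its log2 fold change of 0.08 (SE 0.28) was small beside that span, with 4-AP replicate 2 and control replicate 1 high. Neu4, a sialidase, spanned 3.65 to 10.4 CPM in 4-AP brain and 5.66 to 14.3 CPM in control brain, with its lowest value in a 4-AP library and its highest in a control (log2 fold change -0.25, SE 0.46). Enpp6, a choline phosphodiesterase known as an early sign of new oligodendrocytes, had a log2 fold change of -0.011 (SE 0.53) and the lowest level per kb of all 36 genes, at 0.689 CPM in 4-AP brain and 0.697 CPM in control brain.

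The 18 mature myelin genes held most of the reads of the lineage, and 0 were called. Their sum was 2588, 3417 and 2520 CPM in 4-AP libraries and 3526, 2237 and 3023 CPM in controls, or 2841 ± 500 CPM and 2928 ± 649 CPM (SD, n = 3 each). The median log2 fold change was 0.17 with 15 of 18 genes above 0, and the most abundant gene, Mbp, was one of the 3 below 0. Without Mbp the other 17 summed to 1372 ± 345 CPM in 4-AP brain and 1258 ± 194 CPM in control brain.

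The genes for the structural proteins of compact myelin differed in sign among themselves. Mbp, whose basic protein holds the cytoplasmic faces of the membrane together, had 1434, 1647 and 1326 CPM in 4-AP libraries and 2089, 1186 and 1736 CPM in controls. The 3 4-AP values all lay within the range of the controls, and the log2 fold change was -0.19 with SE 0.18 (adjusted p = 0.719 by edgeR). Mobp, a small basic protein of the same compartment whose values are given after they were seen, had 323, 577 and 312 CPM in 4-AP libraries and 374, 295 and 363 CPM in controls. Its log2 fold change of 0.24 (SE 0.21) was -0.18 without replicate 2 of both groups. Mal, a lipid-raft proteolipid, had a like pattern: 4-AP replicate 2 stood at 129 CPM, the other 4-AP libraries at 67.8 and 64.3 CPM, and the controls between 72.4 and 86.1 CPM (log2 fold change 0.13, SE 0.23). Cldn11, the claudin of the tight junctions of myelin, ran from 72.4 to 110 CPM in 4-AP brain and from 72.9 to 94.6 CPM in control brain, a log2 fold change of 0.023 (SE 0.19). In Mobp, Mal and Cldn11 alike, 4-AP replicate 2 was the highest of the 6 libraries. Opalin is a membrane protein of mature oligodendrocytes. Opalin had 8.47, 9.65 and 4.39 CPM in 4-AP libraries and 5.66, 4.67 and 2.68 CPM in controls. Its log2 fold change of 0.80 was the highest of the lineage but its SE was 0.46 and the groups overlapped, on between 6 and 27 counts a library.

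Among the genes of the myelin surface and of the channels next to the axon, Mag (chr7:30899176-30914873, 13 exons), an adhesion protein that faces the axon, had 295, 358 and 283 CPM in 4-AP libraries and 352, 215 and 311 CPM in controls. Both the highest value, in 4-AP replicate 2, and the lowest, in control replicate 2, came from replicate 2, and the log2 fold change was 0.10 (SE 0.17). Cnp (chr11:100574904-100591729, 4 exons), the phosphodiesterase that keeps cytoplasmic channels in myelin open, had 173, 300.5 and 222 CPM in 4-AP libraries and 269, 186 and 235 CPM in controls. The groups overlapped and the log2 fold change was 0.019 (SE 0.19). Mog, on the outer surface of myelin, ran from 13.7 to 17.5 CPM in 4-AP brain, within the 9.82 to 22.0 CPM of control brain, and its log2 fold change was 0.045 (SE 0.32). Hapln2, a link protein of the matrix at nodes, ran from 8.77 to 19.6 CPM in 4-AP brain and from 11.4 to 18.3 CPM in control brain (log2 fold change 0.13, SE 0.32). For Mog the wider spread was in the controls, and for Hapln2 in the 4-AP libraries. Gjc3, a connexin, ran from 15.7 to 22.1 CPM in 4-AP brain and from 9.82 to 17.1 CPM in control brain (log2 fold change 0.31, SE 0.29). Ermn, a cytoskeletal protein, ran from 14.3 to 16.8 CPM in 4-AP brain and from 9.37 to 15.6 CPM in control brain (log2 fold change 0.22, SE 0.30). Anln, which scaffolds septins in myelin, ran from 5.85 to 21.1 CPM in 4-AP brain and from 8.48 to 11.7 CPM in control brain (log2 fold change 0.31, SE 0.37). All 3 had overlapping groups, and in Anln the 4-AP libraries held both the lowest and the highest value.

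Ugt8a, the enzyme that makes the galactolipid galactosylceramide, had 49.5, 68.6 and 32.2 CPM in 4-AP libraries and 36.5, 45.9 and 36.1 CPM in controls. Its log2 fold change was 0.37 with SE 0.23 (adjusted p = 0.527 by edgeR), and the lowest value was in a 4-AP library. Fa2h, which hydroxylates the fatty acid of the same lipid, ran from 11.7 to 14.6 CPM in 4-AP brain and from 12.9 to 21.7 CPM in control brain, with a log2 fold change of -0.33 (SE 0.30). The 2 enzymes thus had opposite signs, and neither passed the test. Aspa, which breaks down N-acetylaspartate for lipid synthesis, ran from 5.21 to 12.9 CPM in 4-AP brain and from 3.63 to 10.1 CPM in control brain (log2 fold change 0.44, SE 0.44). Sirt2, a deacetylase found in myelin, ran from 43.7 to 57.8 CPM in 4-AP brain and from 39.9 to 45.1 CPM in control brain (log2 fold change 0.21, SE 0.20). Gpr37, a G protein-coupled receptor of oligodendrocytes, ran from 30.0 to 48.2 CPM in 4-AP brain and from 31.6 to 62.9 CPM in control brain (log2 fold change -0.072, SE 0.25). The groups of these 3 genes overlapped, those of Sirt2 only at the lower end of its 4-AP range. Trf, the iron carrier transferrin, had 3.26, 5.003 and 5.12 CPM in 4-AP libraries and 4.40, 1.56 and 1.78 CPM in controls. Its log2 fold change of 0.79 had an SE of 0.58 on 4 to 14 counts a library, and the groups overlapped.

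Per kb of exon the order of the most abundant genes was alike in both groups. RNase R removes linear RNA, and linear and circular RNA of a gene cannot be told apart. The order is therefore one of reads per kb in these libraries, and levels of different genes need not compare. Mbp led with 174 CPM per kb in 4-AP brain and 197 CPM per kb in control brain. Mag followed with 76.6 CPM per kb in 4-AP brain and 71.9 in control brain. Cnp came next with 63.7 CPM per kb in 4-AP brain and 63.3 in control brain, before Mobp with 59.0 in 4-AP brain and 50.3 in control brain. The gaps between Mag, Cnp and Mobp were within the spread of their libraries. The highest gene that is not a myelin component was Olig1, at 29.3 CPM per kb in 4-AP brain and 25.3 CPM per kb in control brain.

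Libraries of the same group differed from each other in a way that many of the genes shared. Over all 36 genes, 4-AP replicate 2 held the highest of the 6 values for 19, and control replicate 2 held the lowest for 12 and the highest for 0. Of all tested genes 17.6% had their highest value in 4-AP replicate 2 and 13.7% their lowest in control replicate 2. The high values of 4-AP replicate 2 were not particular to the 36 genes. It was the highest library for 6 of 10 endothelial and mural markers, 7 of 18 cholesterol synthesis genes and 16 of 35 other mature oligodendrocyte genes. It was highest for 1 of 12 other precursor and 2 of 11 other differentiating genes. Control replicate 2 was lowest for 0 of the 10, 2 of the 18 and 11 of the 35. The median deviation from a gene's own mean, on the log2 scale, was -0.05, 0.35 and -0.022 in 4-AP replicates 1 to 3, and 0.12, -0.23 and -0.03 in control replicates 1 to 3. In 4-AP replicate 2 31 of the 36 genes lay above their own mean, and in control replicate 2 only 5 did. Control replicate 1 also stood high, with 26 genes above their mean and the highest value of 6: Cspg4, Myrf, Mbp, Mog, Fa2h and Gpr37. The median was largest in mature myelin, where 17 of 18 genes lay above their mean in 4-AP replicate 2, at a median of 0.44. In the newly formed stage 8 of 10 did, at 0.34, and 0 of 10 lay above their mean in control replicate 2. Precursor genes followed with 6 of 8 in 4-AP replicate 2 and 1 of 8 in control replicate 2.

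**Figure D3:**
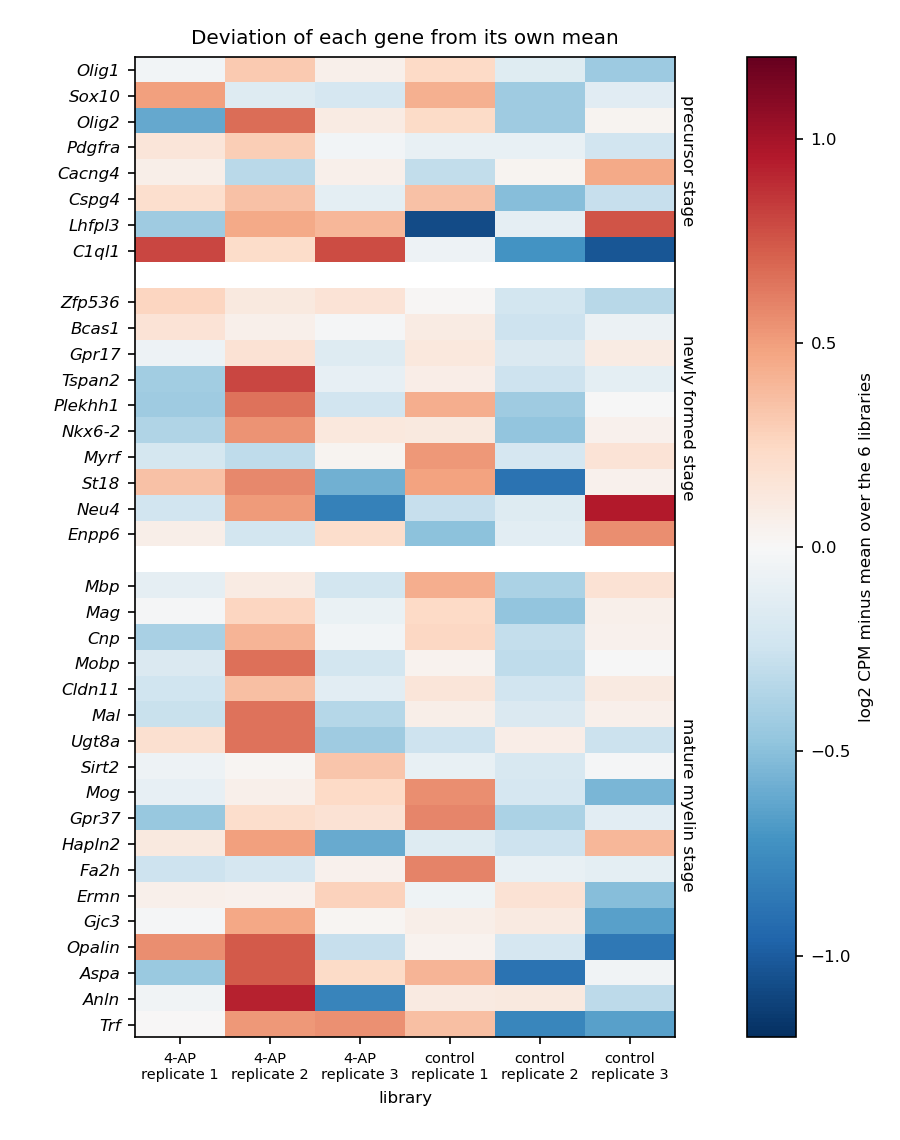
Deviation of each gene in each library from its own mean over the 6 libraries, in log2 CPM, red above and blue below the mean, with 4-AP libraries on the left. The column of 4-AP replicate 2 is mostly red, with 31 of 36 genes above their mean, and that of control replicate 2 mostly blue, with 5 of 36.

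Leaving libraries out moved the stages unequally. Relative to the median of all tested genes, the precursor median was 0.24 with all libraries, 0.16 without 4-AP replicate 2 and 0.13 without control replicate 2. The newly formed median was 0.12 with all libraries and -0.032 and -0.08 without these 2 libraries in turn. The mature median was 0.18, against -0.031 and 0.07. With replicate 2 of both groups left out the medians were 0.002 for precursor, -0.23 for newly formed and -0.27 for mature genes, each from 2 libraries a group. The order of the stages also depended on how genes were assigned. Another assignment left out Olig1, Olig2 and Sox10, and moved Gpr17 and Neu4 to precursors and Nkx6-2 and Plekhh1 to mature myelin. The plain medians were then 0.11 for precursor, 0.21 for newly formed and 0.17 for mature genes. With the main assignment they were 0.24, 0.11 and 0.17.

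**Figure D4:**
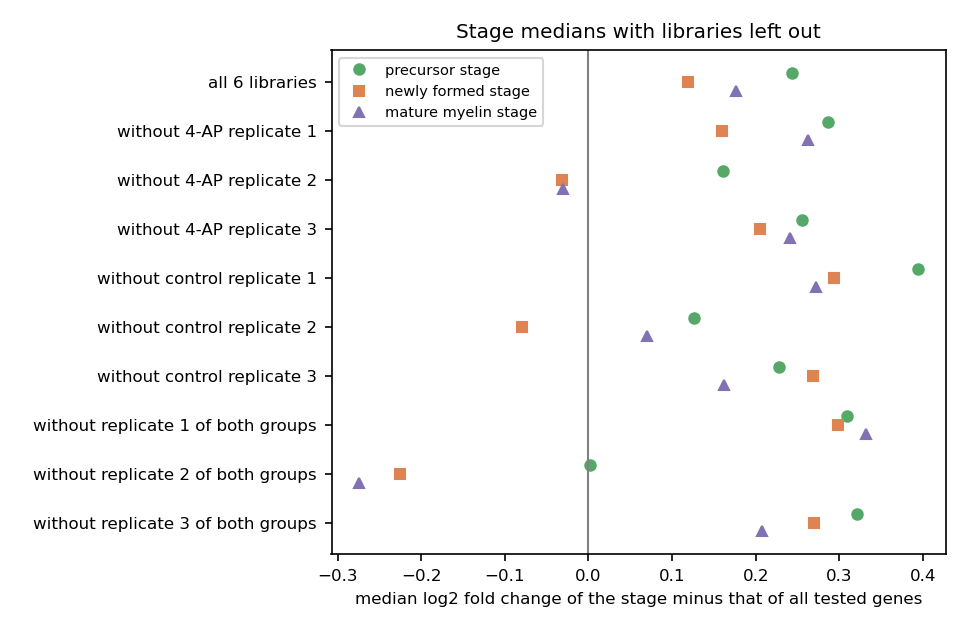
Median log2 fold change, 4-AP over control, of each stage minus that of all tested genes, with all 6 libraries and with libraries left out. The precursor median stays between 0.002 and 0.39, while the newly formed and mature medians reach -0.23 and -0.27 without replicate 2 of both groups.

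Markers of other cells also differed between libraries. Of 10 excitatory neuron markers 3 fell in 4-AP brain, against 0.509% of all tested genes called lower: Slc17a7, the vesicular glutamate transporter, by 0.79 on the log2 scale (SE 0.15, adjusted p = 0.0142 by edgeR), Neurod2, a neuronal transcription factor, by 0.96 (SE 0.22, adjusted p = 0.0379 by edgeR) and Nrgn, a postsynaptic calmodulin-binding protein, by 0.79 (SE 0.17, adjusted p = 0.0333 by edgeR). In 8 of the 10 all 4-AP libraries lay below all controls, against 10.4% of all tested genes, while Slc17a6, the other vesicular glutamate transporter of the list, was at a log2 fold change of 1.05 (SE 0.82) with overlapping groups. With each library left out in turn Slc17a7, Neurod2 and Nrgn passed in 3, 1 and 2 of 6 fits, and over all 18 other settings in 13, 11 and 12. The summed level of the 10 markers was 2007, 1379 and 1476 CPM in 4-AP libraries and 2644, 2505 and 2617 CPM in controls, lowest in 4-AP replicate 2, the library with the highest value for 11 of the 18 mature myelin genes. The controls went the other way: this sum and that of the 36 lineage genes were both highest in control replicate 1 and lowest in control replicate 2. Of 10 astrocyte markers 1 fell, the glutamate transporter Slc1a2, by 0.63 (SE 0.14, adjusted p = 0.0328 by edgeR). Slc1a2 passed in 2 of the 6 fits and in 11 of all 18 other settings. Of these 10 markers 7 lay above 0, with a median of 0.11, and the 9 markers without Slc1a2 summed to between 1169 and 1332 CPM in 4-AP libraries and between 1084 and 1236 CPM in controls. Of 10 microglia markers 0 were called by edgeR and 4 had an unadjusted p under 0.05. Of the 10, 5 lay above 0 and 5 below, with a median of 0.012. They summed to between 487 and 594 CPM in 4-AP libraries and between 411 and 481 CPM in controls, without overlap. Most of that sum was Cx3cr1, with 404, 390 and 327.5 CPM in 4-AP libraries and 251, 279 and 227 CPM in controls. Siglech, named after its values were seen, was at -1.21 (SE 0.50) with all 4-AP libraries below all controls. Cx3cr1, a chemokine receptor of microglia, was at 0.57 ± 0.14 on the log2 scale (SE; adjusted p = 0.0593 by edgeR, called in 3 of 18 other settings), and Ctss, a lysosomal protease, at 1.07 ± 0.34 (SE; adjusted p = 0.129 by edgeR). Of 10 endothelial and mural and 8 inhibitory neuron markers 0 were called, and 0 had an unadjusted p under 0.05. Of 10 hypothalamic and thalamic markers 5 were tested and 3 rose, against 0.334% of all tested genes: the hormone genes Oxt, Avp and Trh. Control counts were 0, 0 and 0 for Oxt, 0, 3 and 0 for Avp and 3, 10 and 1 for Trh. These genes met the count filter only through the 4-AP libraries where they are high. Their calls and the share of 3 in 5 were thus partly set by the filter. Oxt averaged 6.44 CPM over 4-AP libraries and was at 0 in every control. Avp averaged 14.6 CPM over 4-AP libraries against 0.259 CPM over controls, and Trh 20.6 CPM over 4-AP libraries against 1.33 CPM over controls. Oxt, Avp and Trh passed in all 6 fits that left out a library, each made with the same kind of filter. Rorb, of the same list and named like Slc17a6 after its values were seen, was at -0.52 (SE 0.20) with all 4-AP libraries below all controls. A further pair of genes was singled out after their values were seen. Prkcd, known from thalamic neurons, had 10.4, 81.8 and 59.2 CPM in 4-AP libraries and 61.6, 10.6 and 8.48 CPM in controls. Gfap, high in astrocytes of white matter, had 99.1, 193 and 84.1 CPM in 4-AP libraries and 163, 90.0 and 65.6 CPM in controls. Both were highest in 4-AP replicate 2 and next highest in control replicate 1, the libraries with the highest sums of the 36 lineage genes. Other genes of their lists did not share this: 4-AP replicate 2 was the highest library for 4 of the 10 astrocyte markers and for 1 of the 10 hypothalamic and thalamic markers, Prkcd. The share of mitochondrial counts was 2.35%, 1.23% and 1.77% in 4-AP libraries and 0.564%, 0.904% and 1.17% in controls. The 10 most abundant genes of a library took 38.5%, 25.0% and 34.1% of counts in 4-AP libraries and 14.7%, 16.2% and 27.9% in controls. The part of these differences in the values of the oligodendrocyte genes was not tested.

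Further genes of the lineage that are outside the 36 were read from longer lists. Of 12 other precursor genes 10 were tested and 0 called, with a median log2 fold change of -0.16, opposite in sign to the 8 above. In 4 of the 10 all 4-AP libraries lay below all controls and in 1 above, against 10.4% and 8.36% of all tested genes. An unadjusted p under 0.05 by edgeR was found for 3, against 13.9% of all tested genes. The smallest p was that of Pcdh15, a protocadherin, at 106 ± 7.97 CPM in 4-AP brain and 70.6 ± 7.71 CPM in control brain (SD, n = 3 each; log2 fold change 0.57, SE 0.17, adjusted p = 0.0999 by edgeR and between 0.0489, with DESeq2, and 0.559 over the other settings). Lingo1, an inhibitor of differentiation that neurons also express, was at -0.51 (SE 0.17, adjusted p = 0.147 by edgeR, called in 2 of 18 other settings). Of 11 other genes of differentiating cells 8 were tested, with a median of -0.002, and 1 was called. Tmem163, a zinc transporter, had 11.7, 14.3 and 26.3 CPM in 4-AP libraries and 5.66, 6.74 and 4.91 CPM in controls. It rose by 1.54 on the log2 scale (SE 0.36, adjusted p = 0.0464 by edgeR), all 4-AP libraries lying above all controls, but passed in only 1 of the 6 fits that left out a library, that without 4-AP replicate 2. Over all 17 other settings Tmem163 was called in 7. The second smallest p of this list was that of Kif21a, at -0.13 (SE 0.16). Of 36 other mature genes 33 were tested and 0 called, with 22 above 0 and a median of 0.036. Dock10 stood at 0.62 (SE 0.18, adjusted p = 0.112 by edgeR) and Pllp, plasmolipin, at 0.79 (SE 0.36, adjusted p = 0.335 by edgeR). Cholesterol is made in bulk for myelin, and of 18 genes of its synthesis 16 were tested, 0 called, 11 above 0 and the median was 0.072. Ebp, a sterol isomerase, was at a log2 fold change of 0.75 (SE 0.33).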

How the data were processed

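Gene counts were read from 6 RNase R-treated mouse brain libraries, 3 per group. The authors deposited whole-number read counts per gene, and per the submitters' processing notes the tools were STAR 2.5.3a and featureCounts, with mm10 as the build. Annotation release, strand setting and handling of multi-mapping reads were not given in the sources used here, so overlapping and antisense genes cannot be told apart. Of 55604 identifiers 54723 matched GENCODE M21, and the 881 others held 0.02% of counts.

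The filter was filterByExpr with a minimum count of 10 and a minimum total of 15, the scaling the trimmed mean of M-values, and the test the robust quasi-likelihood test of edgeR 4.0.16 in R 4.3.3, over 11388 genes. P-values were adjusted by Benjamini-Hochberg, with calls at an adjusted p under 0.05. Alternatives were other scalings and filters, DESeq2 1.42.0, limma-voom 3.58.1, a replicate block, an adjusted p under 0.1, libraries left out and another assignment of genes to stages. CPM per kb divides CPM by the exonic length. No 2 libraries agreed within sampling noise. Control replicate 3 was nearer to 4-AP replicates 2 and 3 (chi-square per degree of freedom 8.62 and 9.55) than to control replicates 1 and 2 (26.4 and 24.9). Its value with 4-AP replicate 1 was 22.8. The labels do not say that samples came from separate animals, so p-values measure only the spread between these samples, which may be technical.

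The genes and lists were chosen with earlier results of these data known. Values in every library are given for the 3 most abundant genes per kb and the 3 smallest p of each stage and for each gene that was called or whose groups lay apart; from the other lists, called genes and the 2 smallest p are named, except for a gene that is not reported here. The SDs and SEs given include the spread between libraries, while the floors cover counting error only.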

Additional observations from a re-analysis of the deposited data

How the results depend on the processing

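The count of oligodendrocyte genes called was 0 under every setting run, and of 609 values of the 35 tested genes under alternatives 0 passed the threshold (smallest adjusted p 0.160), while 76 lay on the other side of 0 and 9 genes had none there. Calls over all genes numbered 96, against 319 by total counts only (26 higher and 293 lower), 179 by DESeq2, 328 with no filter on low counts, 290 at an adjusted p under 0.1, and between 26 and 159 with libraries left out. With the replicate number as a block 265 genes were called and 0 of the lineage; same-numbered deviations correlated at -0.002, 0.11 and 0.025 and not every library correlated best with its own number, so the numbers were not taken as pairs, although the series' design text speaks of pairs without naming what they share. Total counts only moved the median of all genes to -0.22 and the precursor median to 0.057; relative to that shift 28 of the 35 genes lay above the median of all genes. The log2 values of these genes were then 0 for Olig1 and Ermn, -0.16 for Sox10, -0.07 for Bcas1, -0.11 for Plekhh1, -0.17 for Mog, -0.10 for Mag, -0.17 for Cnp and Cldn11, -0.05 for Mal and -0.06 for Hapln2. Gpr17 was 0.011 by upper quartile scaling, 0.001 by DESeq2 and 0.002 by voom; Enpp6 was 0.015 by upper quartile scaling, 0.095 by voom, 0.006 by relative log expression and 0.026 with the block; with no filter Cnp was -0.009 and Cldn11 -0.005. With libraries left out the stage medians ran from 0.002 to 0.40 for precursor, -0.23 to 0.30 for newly formed and -0.27 to 0.34 for mature genes. Log2 values then ran from -0.41 to 0.043 for Cacng4, from -0.13 to 0.77 for Lhfpl3, from -0.35 to 0.68 for Olig2, from -0.18 to 0.38 for Sox10, from -0.19 to 0.084 for Gpr17, from -0.98 to 0.49 for Neu4, from -0.29 to 0.35 for Enpp6, from -0.23 to 0.67 for Tspan2, from -0.31 to 0.68 for St18, from -0.18 to 0.65 for Nkx6-2, from -0.56 to 0.54 for Plekhh1, from -0.44 to 0.025 for Mbp, from -0.23 to 0.51 for Mog, from -0.17 to 0.29 for Mag, from -0.18 to 0.44 for Mobp, from -0.33 to 0.32 for Cnp, from -0.28 to 0.21 for Cldn11, from -0.011 to 0.47 for Ermn, from -0.34 to 0.34 for Mal, from -0.29 to 1.10 for Aspa, from -0.30 to 0.57 for Hapln2, from -0.53 to 0.008 for Fa2h, from -0.38 to 0.46 for Gpr37 and from -0.35 to 0.61 for Anln. The causes were not tested. Depth limits the genes at a few CPM, C1ql1, Trf, Opalin, Enpp6 and Neu4, and with 3 libraries a group small changes may be missed.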

Other observations

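The axonal side of the myelinated fibre was read from 10 genes of the node of Ranvier and the paranode, which neurons express and which meet the myelin loops. All 10 were tested, 0 were called by edgeR and 6 had an unadjusted p under 0.05, against 13.9% of all tested genes. Of these 6, 4 were below 0, and Cntnap2 (log2 fold change 0.46, named after its value was seen) and Epb41l3 above it. Over all 10 the median log2 fold change, 4-AP over control, was -0.28 and 7 lay below 0, against a median of -0.008 over all tested genes. The summed level was 3133, 3400 and 3400 CPM in 4-AP libraries and 4007, 3654 and 3703 CPM in controls, with all 4-AP libraries below all controls. Scn8a, the sodium channel of mature nodes, had 328, 286 and 328 CPM in 4-AP libraries and 490, 410 and 481 CPM in controls, with groups apart and a log2 difference of -0.55 ± 0.14 (SE; adjusted p = 0.0590 by edgeR). It was called in 5 of 18 other settings, over which its adjusted p ran from 0.0120 to 0.465. Epb41l3, a paranodal scaffold, had the second smallest p and the other sign, at 259 ± 20.7 CPM in 4-AP brain and 196 ± 37.6 CPM in control brain (SD, n = 3 each; log2 fold change 0.40, SE 0.16). Summed excitatory neuron markers were also below all controls in the 3 4-AP libraries, and their part in these values was not tested.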
